A study of Homo sapiens with 16 samples.

Results

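The response of MDA-MB-231 cells to the DNA-methylating agent methyl methanesulfonate (MMS) was followed as the difference between its effect at 24 h and its effect at 8 h. On the log2 scale this is MMS minus DMSO at 24 h, minus the same at 8 h. The comparison used 8 of the 16 RNA-seq libraries of the study. They came from DMSO for 8 h, DMSO for 24 h, MMS for 8 h and MMS for 24 h, with 2 libraries per group from 2 experiments that the series text calls independent. Of 23228 gene rows, 13642 passed the filter on low counts and were tested. MDA-MB-231 is a human breast cancer line without oestrogen receptor, grown here in DMEM with 10% serum, and DMSO is the solvent control. For the MMS dose the series text gives 40 µg/mL and the labels give 40 µM, which differ. The remaining 8 libraries, from cells given 1 µM sorafenib, a multikinase inhibitor, with or without MMS, serve here only to read the same difference in libraries that did not sort the genes.

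MMS transfers methyl groups to DNA bases, mainly at ring nitrogens, and such lesions are removed by base excision repair or by direct reversal and stall replication when they are not. It also modifies proteins and small thiols. Cells meet such damage with several programs: p53 targets, the integrated stress response in which ATF4 is made when translation initiation is restrained, the unfolded protein response of the endoplasmic reticulum (ER), the NRF2 antioxidant program and inflammatory cytokines. Each has its own feedback, whose part in the changes described here was not tested.

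Genes were sorted by which of the 3 log2 values passed edgeR's test at an adjusted p under 0.05. Transient genes had an effect at 8 h and not at 24 h, late genes the opposite, and both also passed for the difference. Reversed genes passed at both times with opposite signs, and sustained genes passed at both times with the same sign. Levels are in CPM, gene counts scaled to the library's total with TMM factors. Library values are given in the order of titles that start with MDA231 and MDAMB231, and this title start entered the fit as a block. An effect or a difference is a log2 value ± SE, with n = 2 libraries in each group throughout. The SE is the absolute log2 value divided by the square root of edgeR's F statistic. It is not the spread of the 2 libraries of a group.

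The 8 libraries held 16774156 to 26448212 counts in genes, with a median of 19332720. Of 6 markers of this mesenchymal line, VIM, CD44, AXL, MSN and CAV1 stood at 279 to 2474 CPM in all 8 libraries, while the sixth, SPARC, was at most 0.954 CPM. Their sum was 6238 to 6696 CPM in DMSO at 8 h, 5854 to 6291 in DMSO at 24 h, 5027 to 5628 in MMS at 8 h and 4467 to 4624 in MMS at 24 h. The oestrogen and progesterone receptor genes ESR1 and PGR were at most 0.222 and 0.701 CPM, and CDH1 (E-cadherin) at most 1.72 CPM. The keratins KRT8 and KRT18 were at 154 to 318 CPM. The 8 luminal markers summed to 385 to 438 CPM in MMS and 486 to 608 CPM in DMSO libraries. The summed level of the 5 immune markers was 3.25 to 7.89 CPM in DMSO at 8 h, 6.15 to 14.5 in DMSO at 24 h, 1.70 to 4.20 in MMS at 8 h and 1.35 to 1.99 in MMS at 24 h. CD14 made up most of it, and PTPRC was at most 0.554 CPM. The 5 endothelial and fibroblast markers summed to 11.9 to 14.4 CPM in DMSO at 8 h, 21.1 to 21.5 in DMSO at 24 h, 6.86 to 7.13 in MMS at 8 h and 9.59 to 12.4 in MMS at 24 h, with DCN at most 0.1 CPM. The part of these low signals in the results was not tested. In bulk samples fewer cells of a type and less RNA per cell cannot be told apart.

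Promoter sequences are shown first for 4 stress genes that the results turn on, because 3 of them carry the same element and fell into different classes. Each is the run of 250 bases before the annotated start, 5′ to 3′ on the gene's strand, from RefSeq on GRCh38.p14, a later build than the hg19 of the counts. Capitals mark the fixed letters of the ER stress element (ERSE, which is CCAAT, any 9 bases, then CCACG) or of the C/EBP-ATF composite element (TGATGNAA), searched on both strands. HSPA5 lies on the minus strand of chr9:125241344-125241593, HERPUD1 on the plus strand of chr16:56931892-56932141, CHAC1 on the plus strand of chr15:40953221-40953470 and ASNS on the minus strand of chr7:97872409-97872658.
HSPA5: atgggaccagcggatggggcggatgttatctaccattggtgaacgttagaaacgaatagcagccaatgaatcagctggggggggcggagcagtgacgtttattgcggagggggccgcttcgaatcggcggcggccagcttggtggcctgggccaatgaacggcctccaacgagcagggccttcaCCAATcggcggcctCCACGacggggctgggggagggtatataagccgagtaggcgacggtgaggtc
HERPUD1: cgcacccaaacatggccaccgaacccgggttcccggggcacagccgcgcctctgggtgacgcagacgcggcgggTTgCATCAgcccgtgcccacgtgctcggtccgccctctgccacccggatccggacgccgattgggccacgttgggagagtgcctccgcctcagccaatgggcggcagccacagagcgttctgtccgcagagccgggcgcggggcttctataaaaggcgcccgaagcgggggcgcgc
CHAC1: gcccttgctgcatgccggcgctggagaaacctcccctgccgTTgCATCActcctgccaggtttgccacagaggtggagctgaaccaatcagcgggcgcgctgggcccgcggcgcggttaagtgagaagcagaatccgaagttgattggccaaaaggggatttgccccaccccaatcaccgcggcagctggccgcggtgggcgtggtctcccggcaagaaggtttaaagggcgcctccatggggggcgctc
ASNS: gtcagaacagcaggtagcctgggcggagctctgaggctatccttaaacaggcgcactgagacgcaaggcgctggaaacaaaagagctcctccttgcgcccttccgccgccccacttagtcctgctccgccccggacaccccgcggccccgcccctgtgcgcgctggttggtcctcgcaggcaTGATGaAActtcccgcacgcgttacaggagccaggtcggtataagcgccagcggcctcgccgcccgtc
HSPA5, the main ER chaperone BiP, held 1 ERSE ending 47 bases before the start. HERPUD1, a factor of ER-associated degradation, and CHAC1, a glutathione-degrading enzyme induced by ATF4, held the C/EBP-ATF letters on the opposite strand. ASNS, the asparagine synthetase induced by ATF4, held them on its own strand, 60 bases before the start. The promoter of TRIB3, another stress gene of these results, was searched in the same way, held neither element and is not printed. A match is a description of letters and shows no binding. Other forms of these elements were not searched, so a promoter without a match may still hold one. The C/EBP-ATF letters occurred in 3.67% of all 27305 promoters of the table and ERSE in 0.0806%, and in 1.68% and 0.134% of the 10471 tested genes with a promoter there. These shares are over the table's whole window of 300 bases, 250 before and 50 after the start.

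The MMS effect changed between 8 h and 24 h for 3860 genes by edgeR's test, 28.3% of those tested. It was higher at 24 h for 1625 genes (11.9%) and lower for 2235 (16.4%). The effect itself passed for 6170 genes at 8 h (45.2%) and for 6846 at 24 h (50.2%). Sorting gave 1096 transient, 1336 late, 393 reversed and 3513 sustained genes. A further 2772 genes passed at 1 time only without passing for the difference, 96 passed for the difference only and 4436 passed nowhere. Across the 13642 genes the effects at the 2 times had r = 0.557 and rho = 0.539, as a description of values that share the fit. The median over all genes tested was 0.00 for the effect at 8 h, 0.01 at 24 h and -0.03 for the difference. Just inside the threshold lay CES2, a carboxylesterase gene, with a difference of 0.34, and just outside it EGR3, an immediate early factor, with -2.27.

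These counts rested on the block. With no replicate block the same 8 libraries gave 776 genes for the difference, 246 higher and 530 lower (5.69%, 1.8% and 3.89% of those tested), and all 776 were among the 3860 with the same sign. Without MMS 8 h replicate 1 the count was 2524. Single libraries also moved the classes: transient rises were 394 without DMSO 8 h replicate 1 and 416 without either MMS 8 h replicate, transient falls 275 to 290 without those same 3, late rises 436 without MMS 8 h replicate 1 and 362 without MMS 24 h replicate 1, and late falls 434 without the latter. Reversed genes from raised to lowered were 153 to 158, and from lowered to raised 75 to 84, without MMS 8 h replicate 1 or either MMS 24 h replicate, the latter also without MMS 8 h replicate 2. The difference had the same sign within both title starts for 3854 of the 3860 genes, which is a description since these libraries chose them. The labels do not say whether the 2 libraries of a group differ in culture or only in handling, beyond the series text, so the p-values measure the spread between these libraries.

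**Figure D1:**
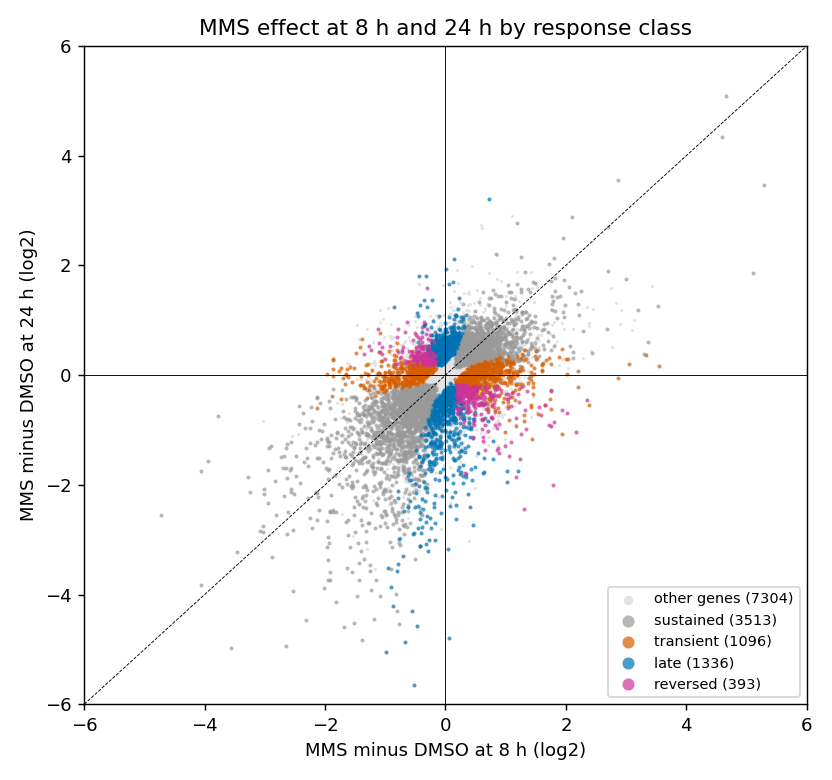
The log2 MMS effect at 8 h (x axis) is plotted against that at 24 h (y axis) for the 13642 genes tested, coloured by response class, with the dashed line marking equal effects. Transient genes lie along the x axis, late genes along the y axis and reversed genes in the upper left and lower right corners; 3 genes lie outside the axes.

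**Figure D2:**
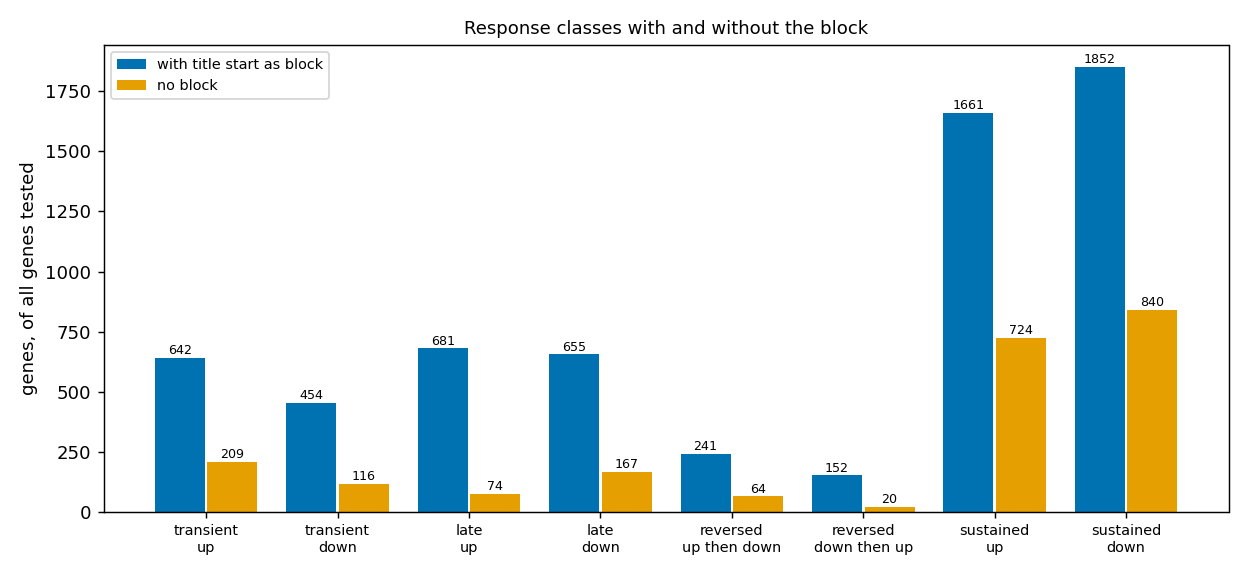
Bars give the number of genes in each response class and direction, of 13642 tested, with the title start as block and with no block. Each class was smaller without the block, from 642 to 209 genes for transient rises and from 681 to 74 for late rises.

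A difference of effects can arise in the MMS cells, in the DMSO cells or in both. Of the 3860 genes, 2767 (71.7%) changed between 8 h and 24 h in the MMS cells only, 396 (10.3%) in the DMSO cells only, 527 (13.7%) in both and 170 in neither. Over all genes tested, 6590 (48.3%) changed with time in the MMS cells, 2909 upwards (21.3%) and 3681 downwards (27%), and 2267 (16.6%) in the DMSO cells, 8.31% in each direction. The DMSO count depended on single libraries: it was 322 without DMSO 8 h replicate 2, 1336 without DMSO 24 h replicate 2, 1477 without DMSO 8 h replicate 1 and, by edgeR with no block, 0, with 2033 genes at an unadjusted p under 0.05. DESeq2 with the block gave 1540. The share from the DMSO cells alone was 5.38% of transient, 15.6% of late and 3.05% of reversed genes. It was highest among growing rises, the sustained genes whose rise was larger at 24 h, where 37 of 98 (37.8%) changed with time in the DMSO cells only.

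The 642 transient rises had a median effect of 0.59 at 8 h and -0.01 at 24 h. CHAC1 stood at 9.32 and 7.43 CPM in DMSO at 8 h, 82.2 and 84.5 in MMS at 8 h, 10.4 and 6.79 in DMSO at 24 h and 13.5 and 8.71 in MMS at 24 h. Only the MMS libraries at 8 h stood apart, and the groups at 24 h overlapped. The effect of 3.33 at 8 h became 0.36, a difference of -2.97 ± 0.22 (edgeR adjusted p = 2.55e-07). SESN2, a p53 and ATF4 target that restrains mTORC1, was at 110 and 106 CPM in MMS at 8 h and at 12.7 to 16.5 CPM in the other 6 libraries (difference -2.84 ± 0.14, edgeR adjusted p = 2.41e-09). CXCL3, a neutrophil chemokine, was at 161 and 170 CPM in MMS at 8 h and at 22.3 to 30.2 CPM elsewhere (-2.92 ± 0.16). Both genes thus separated 1 group from the other 3 with no overlap. MKX, a homeobox factor of tendon, and SLC1A4, a neutral amino acid transporter, completed the 5 largest, with differences of -2.13 ± 0.33 and -2.01 ± 0.15. In SLC1A4 the DMSO level also fell with time, by 0.71, so that the MMS cells ended at 9.25 and 13.4 CPM beside 12.2 and 14.9 in DMSO.

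The 454 transient falls had a median effect of -0.52 at 8 h and 0.06 at 24 h. ZNF238, a zinc finger repressor, was at 28.8 and 30.6 CPM in MMS at 8 h beside 92.1 and 93.4 in DMSO, and at 82.4 and 72.1 CPM beside 78.9 and 72.4 at 24 h. The groups were apart at 8 h and overlapped at 24 h, and the difference was 1.67 ± 0.12 (edgeR adjusted p = 1.56e-07). RAB3A, a GTPase of vesicle secretion, was the largest, with a difference of 1.98 ± 0.30 at levels of at most 6.43 CPM. THBS1, an inhibitor of angiogenesis, reached its level by another route. It was at 2932 and 2972 CPM in DMSO at 8 h, 882 and 1033 in MMS at 8 h, 1588 and 1366 in DMSO at 24 h and 1516 and 1366 in MMS at 24 h. The DMSO level fell by 1.00 while the MMS level rose by 0.59, and the 2 met. The largest falls also held PRR16 and ANGPTL4, a lipase inhibitor, but neither passed with no block (edgeR adjusted p = 0.342 and 0.358). Their DMSO libraries at 8 h stood at 18.3 and 7.06 and at 21.5 and 42.8 CPM.

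The 241 genes that were raised at 8 h and lowered at 24 h had median effects of 0.46 and -0.40. GDF15, a stress cytokine of the TGF-beta family, was at 12.1 and 14.3 CPM in DMSO and 38.9 and 52.1 in MMS at 8 h, then at 22.7 and 29.4 in DMSO and 3.84 and 9.08 in MMS at 24 h. The order of the groups was inverted with no overlap at either time, and the effect went from 1.79 to -2.00 (difference -3.79 ± 0.22, edgeR adjusted p = 1.34e-08). DDIT4, an mTORC1 inhibitor, went from 1.30 to -2.44 (difference -3.74 ± 0.15, edgeR adjusted p = 3.48e-10). Its DMSO level rose by 1.5 with time, from 87.2 and 72.2 to 202 and 247 CPM, while its MMS level fell by 2.24, from 206 and 184 to 43.4 and 39.6 CPM. ERRFI1, a feedback inhibitor of the EGF receptor, was at 1152 and 1181 CPM in MMS at 8 h and 315 and 340 CPM at 24 h (difference -2.31 ± 0.10). RASD1, a RAS-related GTPase, and PTGS2, the inducible cyclooxygenase, had differences of -2.77 ± 0.23 and -3.22 ± 0.22. All 5 also counted as reversed with no block, where the whole class held 64 genes.

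The opposite reversal, lowered at 8 h and raised at 24 h, was found for 152 genes, with smaller effects of median -0.37 and 0.34. HSPA4L, an HSP110 chaperone, was at 55.6 and 54.1 CPM in MMS at 8 h and 110 and 116 at 24 h, while DMSO stayed at 68.5 to 73.2 CPM (difference 1.10 ± 0.10, edgeR adjusted p = 2.05e-06). The MMS libraries lay below every DMSO library at 8 h and above every one at 24 h. MARCH4, a membrane ubiquitin ligase, moved in both arms: DMSO went from 28.6 and 38.5 to 17.0 and 21.1 CPM and MMS from 15.7 and 23.0 to 28.9 and 32.6 (difference 1.5 ± 0.15). MAD2L1 of the spindle checkpoint (0.65 ± 0.11) and FANCG of the Fanconi complex (0.62 ± 0.11) were in this class too, but counted as transient and late with no block. ST6GALNAC5, a sialyltransferase, RGS7, C7orf29 and SNORA61 were among its 5 largest but did not pass for the difference with no block, where the class held 20 genes.

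Late falls numbered 655 and late rises 681. OASL, an interferon-induced gene, was at 23.5 to 30.8 CPM in DMSO at both times and in MMS at 8 h, and at 3.55 and 6.2 CPM in MMS at 24 h (difference -2.46 ± 0.25, edgeR adjusted p = 4.97e-06). PAQR8, a membrane progesterone receptor, had the same course, at 1.52 and 1.99 CPM in MMS at 24 h and 8.46 to 11.6 CPM elsewhere. For both the 1 group stood apart from the other 3. AGR2, an ER protein disulfide isomerase, had the largest late fall, -4.10 ± 0.42, from 8.56 and 1.60 to 0.790 and 0.203 CPM in MMS cells. It did not pass with no block (edgeR adjusted p = 0.0927), the MDA231 library being the higher in every group. Among late rises, ID3, an inhibitor of bHLH factors, was at 13.7 and 12.0 CPM in MMS at 24 h and 4.21 to 7.66 CPM elsewhere (difference 1.59 ± 0.28, edgeR adjusted p = 0.000573). CDH2, N-cadherin, was at 6.66 and 5.23 CPM beside 3.05 and 2.53 in DMSO at 24 h, but overlapped DMSO at 8 h, at 5.33 and 3.86 CPM. Its DMSO level fell by 0.71 with time, which is part of its difference of 1.54 ± 0.27. ICAM2, an adhesion molecule, and FLJ44054, an uncharacterised locus, had differences of 1.28 ± 0.20 and 2.24 ± 0.25.

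Of the 3513 sustained genes, 2574 had effects whose difference did not pass, 420 weakened and 519 grew. NQO1, a quinone reductase of the NRF2 program, was at 336 and 302 CPM in MMS at 8 h and 323 and 306 at 24 h, beside 88.2 to 101 CPM in the 4 DMSO libraries, with a difference of -0.03 ± 0.10. ARC, an activity-regulated gene, was at 12.3 and 17.4 CPM in MMS at 8 h and 8.80 and 8.75 at 24 h, beside at most 0.789 CPM in DMSO, so that its effects of 4.66 and 5.09 rest on few DMSO counts. HSPA6, a strictly inducible HSP70, had effects of 4.59 and 4.34, also over DMSO levels of at most 0.505 CPM. MYCT1, named as a MYC target, had effects of 2.70 at both times, at 13.9 to 33.5 CPM in MMS beside 1.96 to 5.33 CPM in DMSO. MMP3, stromelysin, went from 2.86 to 3.55, but that growth of 0.68 ± 0.19 did not pass with no block (edgeR adjusted p = 0.326) or without any 1 of DMSO 24 h replicate 1, MMS 8 h replicate 1, MMS 24 h replicate 1 and DMSO 8 h replicate 2. Among sustained falls were PDE7B, a cAMP phosphodiesterase, at 15.6 and 8.43 CPM in DMSO and 1.43 and 0.751 in MMS at 8 h, and CIITA, the master factor of MHC class II, with effects of -2.63 and -2.90. Growing falls, 421 genes, held LOXL2, a collagen-crosslinking enzyme, at 367 and 366 CPM in MMS at 8 h and 160 and 164 at 24 h beside 480 to 544 CPM in DMSO (difference -1.25 ± 0.09). A difference that does not pass does not show that the effects were equal.

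**Figure D3:**
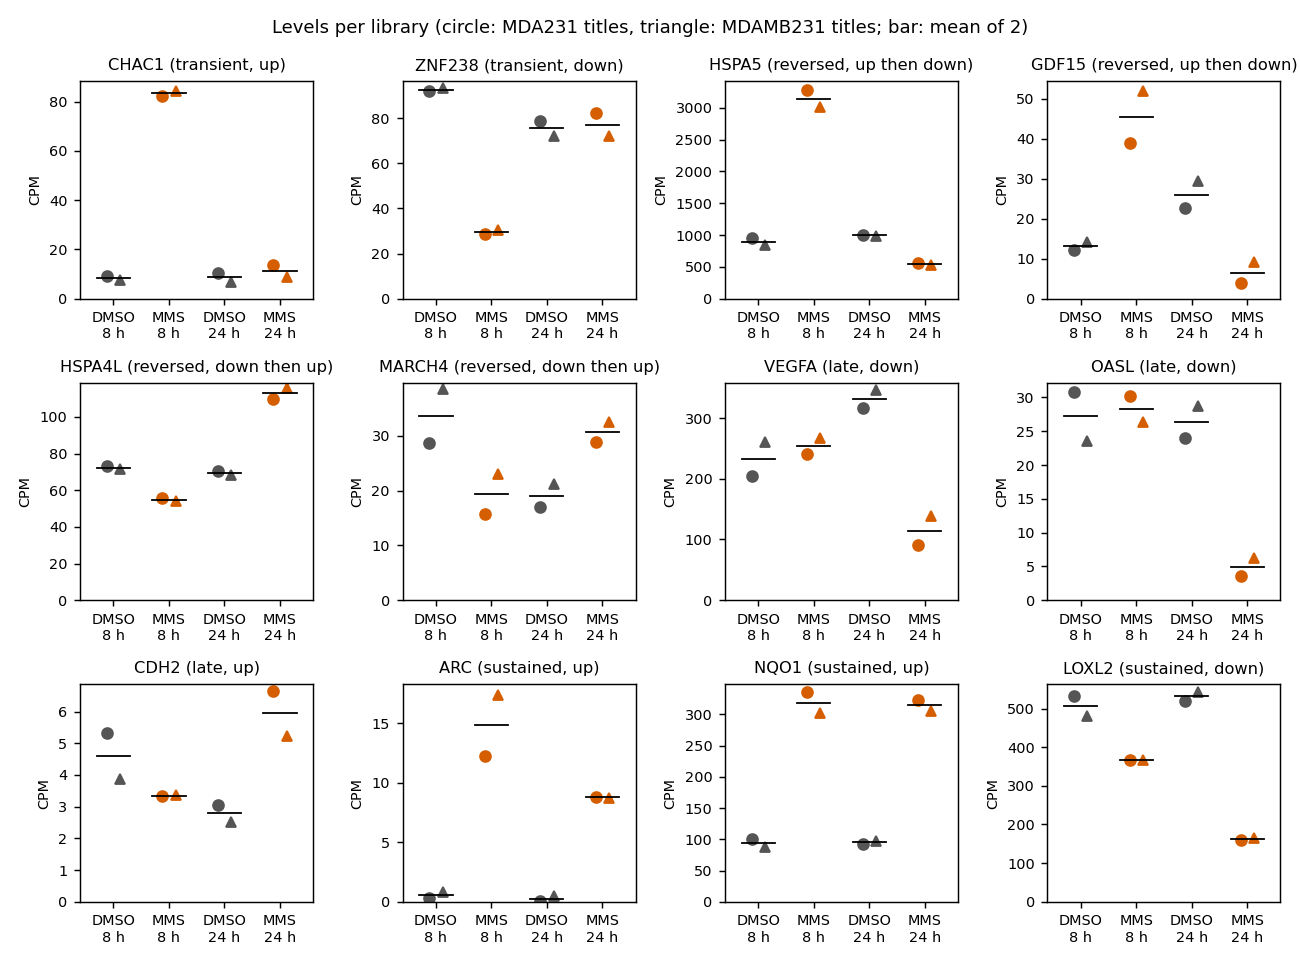
Levels in CPM (y axis, from 0) are shown for 12 genes in DMSO and MMS cells at 8 h and 24 h, with a symbol for each library and a bar at the mean of the 2. In HSPA5 and GDF15 the MMS libraries lie above DMSO at 8 h and below it at 24 h; in NQO1 they lie at 302 to 336 CPM at both times.

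The list of integrated stress response genes had the lowest median difference among the 26 functional lists, -1.69. It holds regulators and also stress-induced genes such as SESN2, DDIT4 and GDF15, which are among the largest of the classes above. Its median is therefore not that of regulators alone. Within each list, examples beyond the 4 of lowest p were chosen after their values were seen. For every list, the counts lower and higher stand beside 16.4% and 11.9% of all genes, or 3.89% and 1.8% with no block. Of 20 members tested, the MMS effect was lower at 24 h for 16 and higher for 2, and its median went from 1.77 to 0.23. With no block 14 were lower and 1 higher. ATF4, the factor at its centre, was at 427 and 372 CPM in MMS at 8 h and 202 and 148 at 24 h, beside 133 to 170 CPM in DMSO (difference -1.13 ± 0.10, edgeR adjusted p = 1.02e-06). Its MMS libraries stood clear of DMSO at 8 h, and at 24 h the groups overlapped, each MMS library exceeding the DMSO library of its own title start. ATF3 (effects 3.53 and 1.26), the CHOP gene DDIT3 (2.11 and 0.42), the pseudokinase TRIB3 (2.43 and 0.40) and PPP1R15A, the eIF2alpha phosphatase subunit GADD34 (1.85 and 1.04), weakened but still passed at 24 h. PPP1R15A did not pass for the difference with no block (edgeR adjusted p = 0.0558). EIF2AK3, the ER eIF2alpha kinase PERK, was a late fall, at 14 and 15.4 CPM in MMS at 24 h beside 32.3 and 27.9 in DMSO (difference -1.25 ± 0.15), whereas EIF2AK4, the amino acid sensing kinase GCN2, recovered from -0.78 to -0.27.

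Amino acid and one-carbon synthesis genes, several of them known ATF4 targets, were raised at 8 h for 12 of 16 and at both times for 7. For 6 of the 16 the effect was lower at 24 h and for 1 higher, beside 16.4% and 11.9% of all genes. With no block 3 were lower and none higher. CTH, which makes cysteine, was transient (difference -1.42 ± 0.17), and MTHFD2 of the mitochondrial folate cycle (-0.85 ± 0.11) and the transaminase GPT2 (-0.95 ± 0.12) weakened. ASNS went the other way: it was at 235 and 213 CPM in MMS at 8 h beside 99.7 and 116 in DMSO, and at 124 and 93.9 CPM at 24 h beside 44.7 and 25.8. Its level fell with time in both arms, by 1.05 in MMS and by 1.65 in DMSO, and its effect went from 1.04 to 1.63 (difference 0.59 ± 0.20, edgeR adjusted p = 0.0388). That call was lost with no block (edgeR adjusted p = 0.359) and in 5 of the 8 fits that left out a library. CHAC1 and ASNS, whose promoters above share the C/EBP-ATF letters, thus had differences of opposite sign, which were not tested against each other. Among 11 amino acid transporters 7 were lower and 1 higher at 24 h. SLC6A9, a glycine transporter, reversed from 0.86 to -1.36, while the heterodimer partner SLC3A2 and the glutamine transporter SLC1A5 stayed at 1.04 and 1.15 and at 0.69 and 0.70. With no block 3 transporters were lower and none higher, and 4 were lower without DMSO 8 h replicate 1, MMS 8 h replicate 2 or MMS 24 h replicate 2.

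ER chaperone and unfolded protein response genes were above DMSO at 8 h for 24 of 30 and below it at 24 h for 17 of 30. For 24 of the 30 the effect was lower at 24 h and 0 higher by edgeR, where the background is 16.4% lower and 11.9% higher. No member was higher at an unadjusted p under 0.05 or by DESeq2 either. There were 14 reversed and 7 transient rises among them, and the median effect went from 0.46 to -0.28. With no block 14 were lower. HSPA5 was at 952 and 844 CPM in DMSO and 3286 and 3008 in MMS at 8 h, and at 1004 and 992 in DMSO and 563 and 536 in MMS at 24 h. The MMS libraries were above every DMSO library at 8 h and below every one at 24 h. Its effect went from 1.81 to -0.86 (difference -2.67 ± 0.09, edgeR adjusted p = 2.54e-11). HERPUD1, the transcription factor XBP1 and the co-chaperone DNAJB9 reversed in the same way, with differences of -2.71 ± 0.12, -2.21 ± 0.11 and -2.05 ± 0.14, though DNAJB9 counted as transient with no block. ERN1, which encodes the sensor IRE1, was transient (effects 1.38 and -0.05), and ATF6, the third sensor, passed at neither time. SEC24D, a coat protein of transport vesicles, had the most negative 24 h effect of the reversed members, -1.12.

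ERSE letters were found in the promoters of 6 of the 27 ER list members with a promoter in the table (22.2%), beside 22 of all 27305 promoters. Among all genes tested 14 had them. The share of each class with ERSE letters is not given, because a promoter was matched for 76.8% of genes, under the 80% needed. Of these 14 genes, 5 were transient rises (ERO1LB, FICD, SERP1, CANX and CRELD2) and 4 reversed from raised to lowered (HSPA5, XBP1, HSP90B1 and CALR). Of all genes tested 4.71% were transient rises and 1.77% reversed in that way, and no enrichment was tested. CALR, CANX and CRELD2 did not pass for the difference with no block (edgeR adjusted p = 0.0799, 0.361 and 0.223). CANX and CRELD2 also lost it in 4 and 5 of the 8 fits that left out a library. At 2 places a single element lies before a pair of divergent genes. One site at chr22:49918554-49918572 lies before both CRELD2, a transient rise (effects 0.66 and 0.02), and ALG12, which passed nowhere (-0.25 and -0.04). Another at chr3:150546710-150546728 lies before SERP1, a stabiliser of ER membrane proteins (0.63 and 0.08), and EIF2A (0.31 and 0.42), which stayed raised. The sites are shown with that of XBP1 at chr22:28800603-28800621, in the direction of the motif, with its fixed letters in capitals, and whether the effects of neighbours differ was not tested.
CRELD2 and ALG12: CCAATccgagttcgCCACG
SERP1 and EIF2A: CCAATtcgctgtctCCACG
XBP1: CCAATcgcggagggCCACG

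The NRF2 program split. Of 32 members 12 were lower at 24 h and 1 higher, beside 16.4% and 11.9% of all genes, or 10 and 0 with no block. At both times 15 stayed raised, beside 12.2% of all genes. HMOX1, heme oxygenase, was at 131 and 132 CPM in MMS at 8 h and 17.8 and 21.8 at 24 h, beside 12.6 to 17.1 CPM in DMSO (difference -2.91 ± 0.15, edgeR adjusted p = 4.06e-09). TXNRD1, thioredoxin reductase, fell from 2985 and 2503 to 780 and 697 CPM in MMS cells, beside 574 to 664 CPM in DMSO (-1.82 ± 0.08). GCLM and UGDH, which supply glutathione and glucuronate, were transient (-1.51 ± 0.12 and -1.35 ± 0.12). In contrast to these, NQO1, the ferritin light chain FTL (1.45 and 1.70) and the pentose phosphate enzyme TALDO1 (0.58 and 0.72) were raised at both times. NFE2L2, the NRF2 gene, reversed from 0.69 to -0.29, and ABCC3, a conjugate exporter, was a late fall (difference -2.27 ± 0.24).

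Heat shock and metal response genes changed less evenly. Of 24 heat shock genes 6 were lower and 3 higher at 24 h (2 and 1 with no block), beside 16.4% lower and 11.9% higher of all genes, so that the higher count is near the background, and the median effect was 0.21 at 8 h and 0.18 at 24 h. The 3 higher calls became 1 without any single library other than the second DMSO replicates. HSPA1A and HSPA1B, near-identical copies whose reads cannot be assigned with certainty, were transient (differences -0.89 ± 0.15 and -0.85 ± 0.11). The heat shock element (GAA, TTC and GAA, each after a gap of 2 bases, or TTC, GAA and TTC, on both strands) was in 5 of the 22 list promoters matched (22.7%) and in 0.487% of all. Of 7 metallothionein and zinc genes 5 were lower (3 with no block): the zinc exporter SLC30A1 was transient (-1.20 ± 0.13), MT1X reversed (-0.96 ± 0.13) and MT1E fell late (-0.93 ± 0.11). Metallothioneins are close paralogs that can share reads.

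Immediate early genes kept part of their rise. Of 26 tested 9 were lower at 24 h and 0 higher (4 lower with no block), and 12 were raised at both times. Of all genes, 16.4% were lower, 11.9% higher and 12.2% raised at both times. FOS (effects 2.68 and 0.84), EGR1 (2.70 and 1.89) and the phosphatase DUSP1 (1.96 and 1.05) weakened, and KLF6 reversed (difference -1.22 ± 0.09). EGR1 did not pass for the difference with no block (edgeR adjusted p = 0.149). Of 27 p53 targets 8 were lower and 1 higher (5 and 0 with no block), and 5 reversed, among them BTG1, an antiproliferative gene (-1.35 ± 0.11), and PMAIP1, which encodes the apoptosis factor NOXA (-0.95 ± 0.10). GADD45A weakened from 2.21 to 1.09. CDKN1A, the cell cycle inhibitor p21, weakened from 1.51 to 0.31, but did not pass with no block (edgeR adjusted p = 0.251).

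Cytokine genes were lower at 24 h for 16 of 22 tested and higher for 2, or 9 and 1 with no block. From raised to lowered 10 reversed. Of all genes, 16.4% were lower, 11.9% higher and 1.77% reversed in that way. In the DMSO cells 11 of the 22 rose with time and 0 fell, by edgeR's test, beside 8.31% of all genes in each direction, so that part of these differences lay in the controls, though no gene passed for that change with no block. IL8, the neutrophil chemokine now named CXCL8, was at 539 and 521 CPM in DMSO and 1412 and 1273 in MMS at 8 h, and at 952 and 697 in DMSO and 448 and 385 in MMS at 24 h. The 2 arms crossed with no overlap. Its DMSO level rose by 0.62 and its MMS level fell by 1.69 (difference -2.31 ± 0.11, edgeR adjusted p = 2.02e-09). IL6 crossed too, from 53.3 and 64.9 beside 88.1 and 116 CPM to 97.1 and 97.1 beside 52.1 and 61.7, with near equal parts from DMSO (0.72) and MMS (-0.84). IL1A went from 0.88 to -1.33, and IL1B was a late fall (difference -1.93 ± 0.15). CXCL2 reversed (-2.81 ± 0.16), or was transient with no block; its reads may not be told from those of CXCL3 with certainty. CSF2, a myeloid growth factor, was 1 of the 2 that were higher: it was at 20.7 and 21.0 CPM in MMS at 8 h beside 45.2 and 43.5, and overlapped DMSO at 24 h, at 71.0 and 72.3 beside 72 and 70.2 CPM. Of 20 NF-kB feedback genes 4 were higher and 3 lower (3 and 1 with no block). Of all genes 11.9% were higher and 16.4% lower, so that the lower count is near the background. BIRC3 recovered from -1.70 to -0.65.

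For hypoxia and glycolysis genes, too, part of the difference lay in the controls. Of 35 tested the effect was lower at 24 h for 18 and higher for 1, with 11 late falls. Of all genes, 16.4% were lower, 11.9% higher and 4.80% late falls. With no block 6 were lower and 0 higher, so most of these calls rested on it. In the DMSO cells 16 rose with time and 0 fell by edgeR or DESeq2, with 2 lower at an unadjusted p under 0.05, beside 8.31% of all genes in each direction. With no block no gene passed for the change in DMSO cells. VEGFA, the main endothelial growth factor, was at 205 and 260 CPM in DMSO and 241 and 267 in MMS at 8 h, and at 316 and 346 in DMSO and 91.2 and 138 in MMS at 24 h. The groups overlapped at 8 h and were apart at 24 h (difference -1.68 ± 0.13, edgeR adjusted p = 2.94e-07), with 0.52 from DMSO and -1.17 from MMS. LDHA, lactate dehydrogenase, fell further, from -0.38 to -0.89, and PDK1, a kinase that restrains pyruvate oxidation, fell late (difference -1.15 ± 0.21). NDRG1, a hypoxia-induced gene, reversed with a difference of -2.01 ± 0.14 but not with no block (edgeR adjusted p = 0.125). Among 24 angiogenic factors 11 were higher at 24 h and 2 lower, or 4 and 1 with no block. VEGFC recovered from -1.15 to -0.49 and the receptor EPHA2 from -0.79 to -0.14, while EDN1, endothelin, went from 0.62 to 1.51 and did not pass for that growth with no block (edgeR adjusted p = 0.0740).

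DNA repair and cell cycle genes showed smaller differences. Their counts stand beside 11.9% higher and 16.4% lower of all genes, or 1.8% and 3.89% with no block. Of 32 homologous recombination and Fanconi genes 12 were higher at 24 h and 1 lower, or 4 and 0 with no block, and 6 were higher without DMSO 8 h replicate 2 and 7 without MMS 8 h replicate 2 or MMS 24 h replicate 2. DNA2, a nuclease of end resection, was at 61.0 and 56.3 CPM in MMS at 24 h beside 30.9 to 43.3 CPM in the other 6 libraries (difference 0.86 ± 0.14, edgeR adjusted p = 0.000342). XRCC3, a factor of homologous recombination, had a difference of 0.63 ± 0.12. Base excision repair and direct reversal genes, the first line against methylated bases, were higher for 8 of 22 and lower for 0, but by edgeR with no block for 0, with 7 at an unadjusted p under 0.05, and for 7 by DESeq2 with the block and 5 without MMS 8 h replicate 1. Their median effect went from -0.08 to 0.19. MPG, the glycosylase that removes methylated purines, had effects of -0.18 and -0.48, of which the second passed. MGMT, the direct reversal enzyme for methylated guanine, did not pass the filter on low counts. Of 40 mitotic genes 29 were lowered at both times, beside 13.6% of all genes, 11 were higher at 24 h and 1 lower. With no block 2 were higher. The 11 became 5 without DMSO 8 h replicate 1 or MMS 24 h replicate 2, 6 and 7 without MMS 8 h replicates 1 and 2, and 17 without MMS 24 h replicate 1. TOP2A, topoisomerase II, was at 309 and 300 CPM in MMS at 8 h and 662 and 725 at 24 h, beside 821 to 1007 CPM in DMSO, below every DMSO library at both times (difference 1.15 ± 0.12, edgeR adjusted p = 3.95e-06). PLK1, AURKA and CCNB1 stayed at -1.23 and -0.96, -0.82 and -0.80, and -0.83 and -0.85. Of 44 replication genes 13 were higher and 4 lower, or 1 and 2 with no block, and 7 were higher without MMS 8 h replicate 1. For replication genes the lower count was under the share of all genes, and both counts with no block were near it. MCM6 of the replicative helicase was a late fall, at 52.3 and 49.9 CPM in MMS at 24 h beside 104 and 86.9 in DMSO. The repressor E2F7 was a transient rise (difference -0.75 ± 0.11).

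For the other lists the counts stand beside 11.9% higher and 16.4% lower of all genes, or 1.8% and 3.89% with no block. Among 18 ERK output genes 9 were lower and 3 higher (1 and 2 with no block), with CCND1, cyclin D1, recovering from -1.28 to -0.21. Of 27 TGF-beta and mesenchymal genes 10 were higher and 9 lower (3 and 3 with no block): SMAD3 recovered from -1.61 to -0.80, against the growing fall of LOXL2. Interferon-stimulated genes were lower for 7 of 29 and higher for 2, or 3 and 0 with no block and 4 lower without the first replicate of MMS at 8 h or at 24 h, with IFIT2 going from -0.55 to -1.59. Autophagy genes were lower for 9 of 22 and higher for 3, or 5 and 1 with no block and 1 higher without MMS 8 h replicate 1, and the adaptor SQSTM1 weakened from 1.23 to 0.17. Cholesterol and fatty acid synthesis genes were lower for 7 of 27 (2 with no block, 3 without MMS 24 h replicate 1), with HMGCS1 reversing from 0.50 to -0.41. Cytosolic tRNA synthetases were lower for 4 and higher for 3 of 20, or 1 and 0 with no block, and the 3 became 0 without DMSO 8 h replicate 1 or the first replicate of MMS at either time. The 4 became 1 without DMSO 8 h replicate 1 or the second replicate of MMS at either time, and 2 without DMSO 24 h replicate 1. Translesion synthesis genes passed for 1 of 12 in each direction and proteasome subunits for 1 of 32, higher, which is near or under the share of all genes, and neither list had a call with no block. Ribosome biogenesis genes were higher for 4 of 23 and lower for 0. Their median DMSO level fell by 0.31 with time, with 18 of 23 passing, while the median MMS level fell by 0.12, and no member passed for the difference with no block or without the first replicate of MMS at either time.

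**Figure D4:**
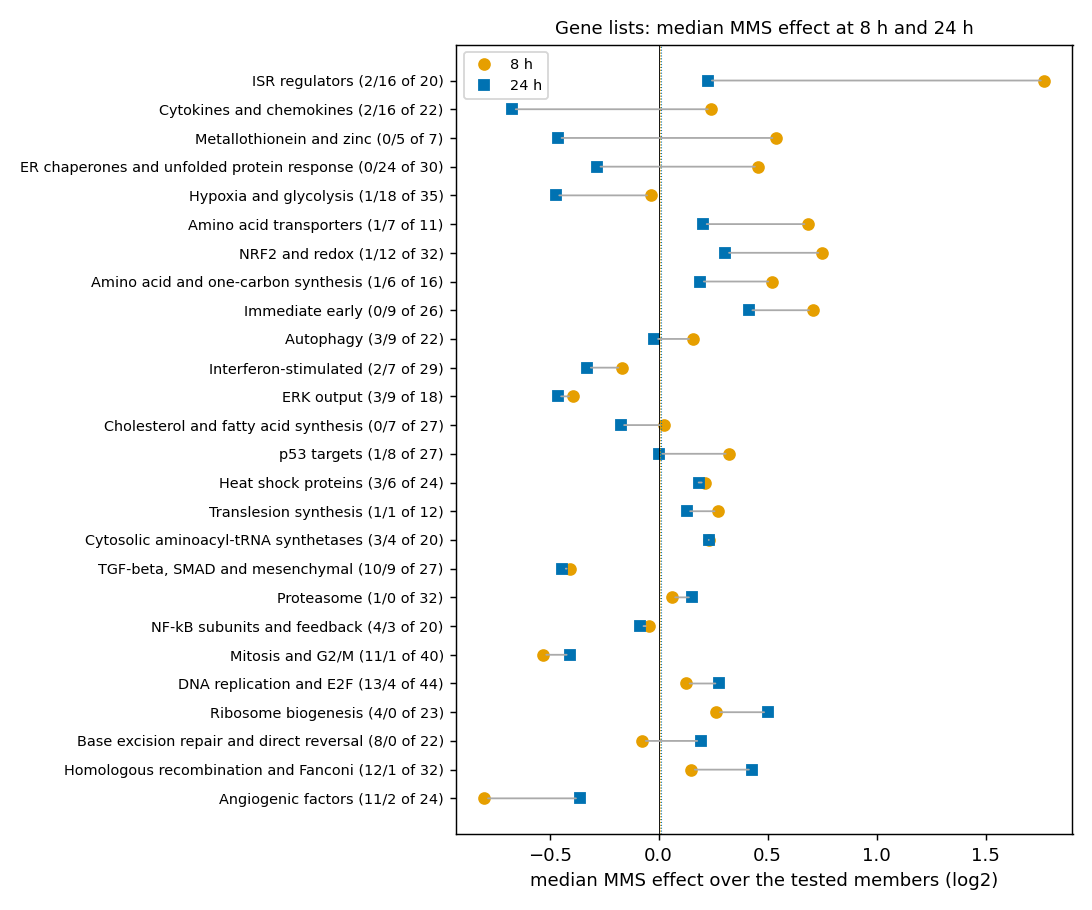
For each of the 26 gene lists the median log2 MMS effect over the tested members is shown at 8 h (circle) and 24 h (square), ordered by the median difference, with the members higher and lower at 24 h of those tested in brackets; dotted lines mark the medians of all genes. The integrated stress response list moves from 1.77 to 0.23, while the cytokine and ER lists cross 0.

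The classes are described by gene length, which the sorting did not use. In GENCODE v29, whose names matched 95.6% of the genes tested, the median gene span was 32.4 kb over all genes and 19.7% were over 100 kb. It was 69.1 kb for sustained falls, of which 41.4% were over 100 kb, 52.5 kb (30.0%) for late falls and 42.1 kb (28.4%) for transient falls. Sustained rises had a median of 24.2 kb (7.30%), late rises 21.6 kb (7.01%) and transient rises 38.3 kb (12.6%). Reversed genes had 41.5 kb (18.3%) from raised to lowered and 20.7 kb (13.2%) from lowered to raised. This is a description with no test, and genes are not independent replicates.

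The same difference was then read in sorafenib-treated cells, as sorafenib followed by MMS against sorafenib alone at 24 h minus 8 h. Those 8 libraries share none with the sorting, but they carry the same 2 title starts. By the series text the combination cells had sorafenib for 12 h before MMS. The labels do not say whether it stayed on with MMS, so the time in sorafenib may differ from that of their controls. By edgeR 4008 of 13746 genes passed there (29.2%), or 1115 with no block and 1933 to 2500 without a replicate of sorafenib at 8 h, either replicate of the combination at 24 h or sorafenib 24 h replicate 1. Of the 3860 genes that had passed without sorafenib 3852 were measured, 3788 (98.3%) had the same sign and 2637 (68.5%) also passed with it. Over all 13534 genes measured in both, 10964 (81.0%) had the same sign and 3896 (28.8%) also passed with it. The share that passed with the same sign was 87.5% of reversed, 80.7% of growing, 70.5% of late, 60.5% of transient and 56.9% of weakening genes, and 7.57% of genes in no class. Across 13534 genes measured in both, the differences had r = 0.772 and rho = 0.762. HSPA5 had -2.34 ± 0.10, GDF15 -4.03 ± 0.24, CHAC1 -3.47 ± 0.35, OASL -2.45 ± 0.24, HSPA4L 1.08 ± 0.12 and IL8 -1.92 ± 0.15, each passing, beside -2.67, -3.79, -2.97, -2.46, 1.10 and -2.31 without sorafenib.

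**Figure D5:**
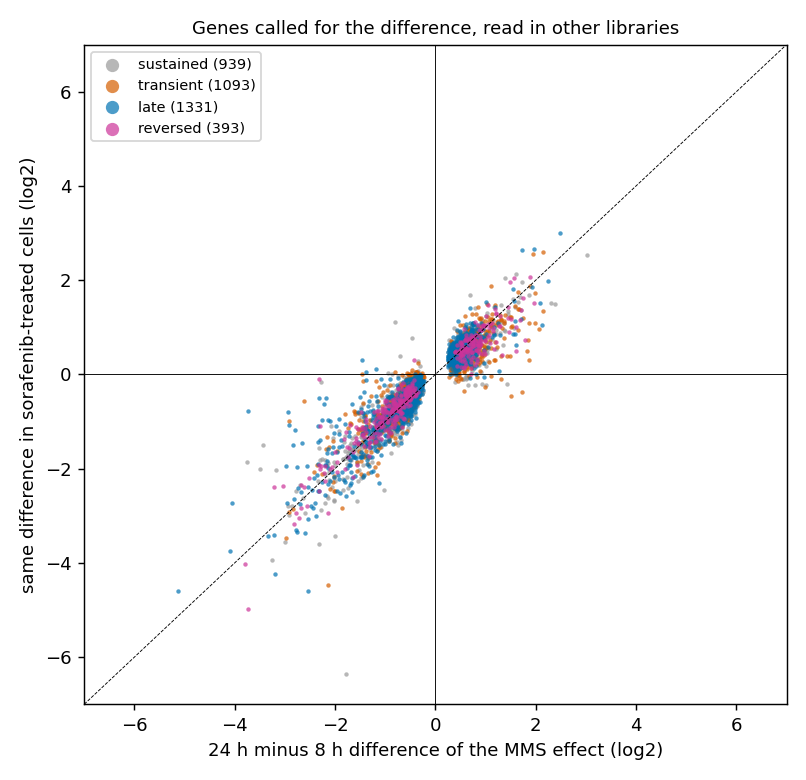
For genes that passed for the difference, the 24 h minus 8 h difference of the log2 MMS effect (x axis) is plotted against the same difference in sorafenib-treated cells (y axis), coloured by response class, with a dashed line at equality. Of 3852 genes 3788 (98.3%) have the same sign on both axes, beside 81.0% of all genes measured in both. The band around 0 on the x axis is empty because the genes were chosen by that value.

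Whether the difference itself depended on sorafenib was tested across all 16 libraries. No gene of 13948 passed edgeR's test (0%), with 647 (4.64%) at an unadjusted p under 0.05 and a lowest adjusted p of 0.103. With no block 0 passed and 201 had such a p, and 63 passed without combination 8 h replicate 2. DESeq2 with the block called 4 genes: TFPI2, a protease inhibitor, NAV3, a microtubule-associated gene, DDIT4 and the transporter gene SLCO4A1. TFPI2 had a difference of 0.13 ± 0.10 without and 1.06 ± 0.11 with sorafenib, and NAV3 -0.47 ± 0.10 and 0.78 ± 0.14, the 1 gene that passed in opposite directions. DDIT4 had -3.74 ± 0.15 and -4.98 ± 0.12, the same sign in both. SLCO4A1 had 0.12 ± 0.21 and -1.61 ± 0.31.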

How the data were processed

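RNA-seq gene counts were deposited for each library. Per the submitters' processing notes, the tools were CASAVA 1.8.2, TopHat2 2.0.8b and HTSeq with build hg19, and per the labels' protocols the libraries were made from total RNA with TruSeq. The annotation, strand setting and counting mode are not given in the sources used here, so overlapping and antisense genes and close paralogs may share reads. The counts deposited by the authors are raw counts per gene. The 5 counter categories stayed out: reads in no gene were 7.05% to 7.94%, ambiguous reads 1.05% to 1.18% and reads without a unique position 29.5% to 30.9% of a library.

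edgeR 4.0.16 (R 4.3.3) was run on the 8 libraries with filterByExpr, TMM factors, 4 group means and the title start as block, leaving 3 residual degrees of freedom. P-values were adjusted by Benjamini-Hochberg over all 13642 genes, with a threshold of 0.05. The labels do not say that a title start marks an experiment. Same-start libraries deviated together: 6 of 6 pairings had a correlation over 0.1 (0.615 to 0.690, median 0.674). The biological coefficient of variation was 0.0579 with the block and 0.137 without. Depth was 16774156 to 26448212 counts. On simulated data of 13535 genes the fit recovered 61.2% of 1.5-fold, 94.0% of 2-fold and 100% of 4-fold differences, with 3 false of 173 calls. The counts were drawn from the fit with the block and its dispersion. Changed were 67, 67 and 66 genes, each with a mean count of at least 50. The simulation therefore cannot show whether the block is right, nor the recovery for genes with fewer counts.

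The genes of each class and list, and the lists themselves, were chosen with earlier results of these data known. Named by rule are up to 5 genes per class and direction with the largest effects at a mean count of at least 50, up to 4 members per list with the lowest p, IL8, IL6, VEGFA and the 3 lowest p in each direction of the test against sorafenib cells. Others were chosen after their values were seen. DESeq2 1.42.0 and the other alternatives are described at the end. Gene spans came from GENCODE v29 and promoters from RefSeq GRCh38.p14.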

Additional observations from a re-analysis of the deposited data

Results flagged for a closer look

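The MMS effect differed between 8 h and 24 h, by edgeR's test of the difference itself, for 3860 of 13642 genes. Among these, 241 passed at both times with a rise at 8 h and a fall at 24 h, and 152 with a fall at 8 h and a rise at 24 h. With no block the 3 counts were 776, 64 and 20. No cause was tested.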

How the results depend on the processing

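No alternative on the 8 or 16 libraries called the difference of a gene in the direction opposite to the reported one. These fits reuse the same libraries, and the stricter thresholds use the same estimates, so opposite calls were unlikely from the start. The counts moved. With no replicate block, whose pairing rests on title starts, 776 genes passed for the difference (246 higher, 530 lower), with 209 transient up, 116 transient down, 74 late up, 167 late down, 64 and 20 reversed, 724 sustained up and 840 sustained down, and 3347 and 0 genes changed with time in MMS and DMSO cells. All 16 libraries with no replicate block gave 1273 (492, 781), then 304, 181, 200, 258, 83, 44, 911 and 956 in the same order, and 3932 and 92. At an adjusted p under 0.01 there were 2195 (851, 1344), with 287 transient down, 348 late up, 120 and 47 reversed and 1095 sustained up, and 839 in DMSO cells. With an absolute log2 value of at least 1 there were 776 (176, 600), with 127, 89, 21, 299, 8, 0, 68 and 306, and 894 and 113 in the 2 arms. DESeq2 gave 154 and 100 reversed genes.

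Leaving out 1 library gave 2524 to 3892 genes (979 to 1814 higher, 1545 to 2078 lower), 394 to 705 and 275 to 512 transient up and down, 362 to 752 and 434 to 659 late up and down, 153 to 236 and 75 to 172 reversed, 1207 to 1589 and 1396 to 1815 sustained up and down, and 4550 to 7152 and 322 to 2114 changed with time in MMS and DMSO cells. In sorafenib-treated cells the count was 1115 with no replicate block and 1933 to 5776 without 1 library. The test against those cells called 4 genes with DESeq2, 1 without DMSO 24 h replicate 2 and 63 without combination 8 h replicate 2. The leave-one-out fits of sorafenib cells and of that test, and its DESeq2 fit, were chosen after seeing the data. The cause of these changes was not tested.

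Of 132 named genes, 41 lost the call for the difference with no block. Uncalled differences near 0 changed sign: that of MYCT1 was 0.016 with RLE factors, 0.021 with DESeq2 and 0.0082 with no filter, and -0.10 to 0.12 without 1 library. Without 1 library those of HSPA6 ranged from -1.62 to 2.41, ARC -0.30 to 2.34, CMKLR1 -4.09 to 3.83, ELF3 -0.95 to 0.16 and P2RY6 -0.44 to 0.54, genes with few counts in an arm.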
